A study of Mus musculus with 12 samples.

Results

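Janus kinases (JAKs) and signal transducers and activators of transcription (STATs) were examined in monocytic myeloid-derived suppressor cells (M-MDSCs) of aged and young mice. The 9 genes are Jak1, Jak2, Jak3 and Tyk2, which encode the JAKs, and Stat2, Stat3, Stat5a, Stat5b and Stat6, which encode 5 of the STATs. They were taken by gene symbol from the deposited count table, which holds 23420 genes, and all 9 were found in it.

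RNA came from bone marrow (BM) cells sorted as CD11b+Ly6G-Ly6Chi from male C57BL/6JNIA mice. The young group held 6 mice aged 6 months, and the aged group held 6 mice aged 24 months. The labels name no engineered allele and no agent, and each mouse gave 1 library. The study asked how ageing alters M-MDSCs, which can become osteoclasts. Expression is shown in CPM, which scales each gene's count to its library total, and a gene was called when edgeR's quasi-likelihood test gave a Benjamini-Hochberg adjusted p under 0.05 over the 9742 genes that passed the filter on low counts.

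A cytokine that binds its receptor brings together the JAKs held on the tails of the receptor chains. The JAKs phosphorylate each other and the receptor, STAT proteins dock on the marked tails, are phosphorylated in turn, pair up and enter the nucleus to bind DNA. In myeloid cells STAT3 carries the signals of G-CSF, IL-6 and IL-10, STAT5 those of GM-CSF and IL-3, STAT6 those of IL-4 and IL-13, and STAT2 works with IRF9 in the response to type I interferon. Most of this control acts through phosphorylation, which RNA does not report, so the values below describe transcripts only.

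Library totals were 4613239 to 9079237 counts in the young group and 8737941 to 16300374 in the aged group. The members had 74 to 8487 counts per library. The sort was checked against marker genes. Ly6c2, the gene of the Ly6C antigen used for sorting, was at 500 ± 100 CPM in young and 727 ± 74.6 CPM in aged mice (SD, n = 6 mice per age, log2 fold change 0.54, edgeR adjusted p = 0.00265, and 0.12 with adjusted p = 0.301 after the length correction), and Itgam, which encodes CD11b, stood at 3376 ± 118 CPM in young and 2895 ± 297 CPM in aged mice. Itgam was called lower (log2 fold change -0.22, edgeR adjusted p = 0.0285, and -0.05 with adjusted p = 0.548 after the length correction). Ccr2, a receptor of classical monocytes, was at 5.03 to 62.0 CPM in aged and 23.9 to 54.7 CPM in young mice. The 11 neutrophil genes examined summed to 97189 to 179501 CPM per kb of exons in young and 191749 to 235594 CPM per kb in aged mice, against 1287 to 1531 and 1366 to 1784 CPM per kb for 9 monocyte genes. Without S100a8 and S100a9, which monocytes express as well, the other 9 neutrophil genes summed to 49278 to 71020 CPM per kb in young and 68699 to 79699 CPM per kb in aged mice. Genes of the neutrophil list were therefore far more abundant in every library than those of the monocyte list, in cells labelled as M-MDSCs. In CPM, Itgam made up most of the monocyte sum, which was 4073 to 4294 CPM in young and 3433 to 4589 CPM in aged mice. Of the 11 neutrophil genes 6 were called higher in aged mice (54.5%, against 22.4% of all genes), and 0 with the correction for gene length (against 18.3% of all genes). Of the 9 monocyte genes 2 were called higher (22.2%) and 1 lower (11.1%, against 23.0% of all genes). With the length correction 0 were called, against 34.8% of all genes. Ly6g was not analysed here. In such bulk samples, fewer cells of a type and less RNA per cell cannot be told apart.

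Of the 9 members, 4 were called (44.4%), against 45.4% of all genes tested. Jak3 was higher in aged mice, where 22.4% of all genes were called higher. Jak1, Jak2 and Tyk2 were lower, which is 33.3% of the members against 23.0% of all genes. The values of Jak1 and Jak2 did not overlap between the ages, which is 22.2% of the members against 21.8% of all genes tested. The count of called members was thus close to the background. The called members were the 4 JAKs, none of the 5 STATs was called, and whether JAKs and STATs differ was not tested. With a correction for gene length Jak3 and Stat5b alone were called. In the edgeR fit as reported, with TMM factors and no correction, no STAT had an unadjusted p under 0.05. DESeq2 also called 0 STATs, with 0 at an unadjusted p under 0.05, and limma-voom called 0, with 2 at an unadjusted p under 0.05. Without TMM factors edgeR called Stat2 (log2 fold change -0.36, adjusted p = 0.0392) and Stat3 (-0.25, adjusted p = 0.0171), and Stat5a, Stat5b and Stat6 changed from slightly above to slightly below 0 (-0.0042, -0.064 and -0.069). The median log2 fold change of the 9 members was -0.16, and that of all genes tested was 0.01. With the length correction the medians were 0.02 and 0.02.

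**Figure D1:**
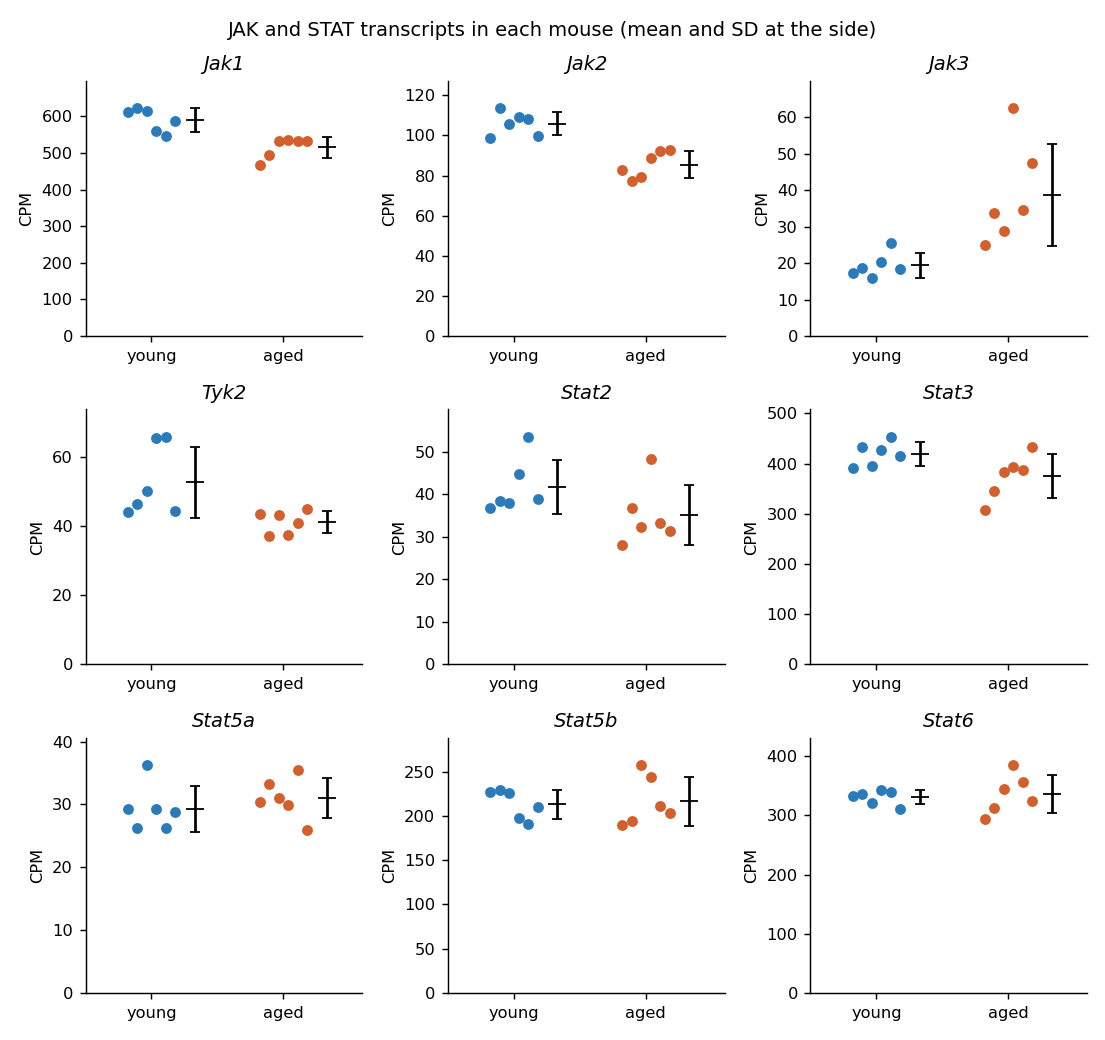
CPM of each of the 9 genes (vertical axes from 0) in the 6 young and 6 aged mice, 1 dot per mouse, with the mean and SD of each age at its side. Jak1 and Jak2 are lower in every aged mouse than in every young mouse, and Jak3 is spread from 25 to 62.5 CPM in aged mice against 15.9 to 25.5 CPM in young mice.

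Among the JAKs, JAK3 differs from the rest in that it binds a single receptor subunit, the common gamma chain encoded by Il2rg, which serves IL-2, IL-4, IL-7, IL-9, IL-15 and IL-21. Its gene lies on mm10 chromosome 8 (chr8:71676383-71690577, plus strand, 25 exon blocks), and 406 bases of its exons (9.94%) are shared with Insl3 on the same strand. Fragments that lie in both genes are not assigned to either by default, and Insl3 itself had at most 3 counts in any library.

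Jak3 was at 15.9 CPM in the lowest, 18.5 CPM in the median and 25.5 CPM in the highest young mouse. In aged mice the lowest value was 25 CPM, the median 34.2 CPM and the highest 62.5 CPM. The ranges meet at a narrow overlap, as only young mouse 6 lay above the lowest aged mouse, mouse 1. The mean rose from 19.3 ± 3.35 to 38.7 ± 13.9 CPM (SD, n = 6), a log2 fold change of 0.99 ± 0.20 (standard error, edgeR adjusted p = 0.00113), or 1.99-fold. The spread between aged mice was wide. Mice 5 and 7 held 62.5 and 47.5 CPM, and the other 4 held 25 to 34.6 CPM. Without aged mouse 5 the log2 fold change was 0.81, the lowest of the 12 fits that each left out 1 mouse, and Jak3 was called in all 12.

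The aged libraries carry alignment numbers 17 to 19 and 24 to 26, whose meaning is not given in the sources used here, and the young libraries carry 11 to 16. Numbers and age therefore cannot be told apart over all mice, and splitting the aged mice by number does not separate them either. Jak3 was 25 to 33.8 CPM in aged mice 17 to 19 and 34.6 to 62.5 CPM in aged mice 24 to 26. Set against all 6 young mice, the first 3 gave a log2 fold change of 0.58 ± 0.15 (standard error, edgeR adjusted p = 0.0122) and the last 3 gave 1.32 ± 0.18 (edgeR adjusted p = 0.000937). Both fits share the 6 young mice, the split was made after the data were seen, and the difference between the subsets was not tested.

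Markers of other cells also differed with age. Of the list for resident macrophages 9 of 9 tested genes were called higher, where 22.4% of all genes were, and of that for promyelocytes 5 of 5 were, 3 of them with the length correction (against 18.3% of all genes). Summed, the macrophage genes stood at 601 to 1639 CPM in aged and 395 to 551 CPM in young mice. Slc40a1, an iron exporter, made up 37.2% to 91.6% of that sum. The other 9 macrophage genes, a sum formed after its values were seen, stood at 46.5 to 64.4 CPM in young and 56.0 to 1030 CPM in aged mice. From the highest to the lowest sum, the aged mice were mouse 1 (1030 CPM, with Jak3 at 25 CPM), mouse 2 (322 and 33.8 CPM), mouse 6 (174 and 34.6 CPM), mouse 7 (168 and 47.5 CPM), mouse 4 (111 and 28.9 CPM) and mouse 5 (56.0 and 62.5 CPM). The extremes of the 2 measures lay at opposite ends in mice 1 and 5, while mouse 4 was second lowest in both. In the list for dendritic cells, Cd74 and H2-Ab1 were called higher, Clec9a was called lower (log2 fold change -2.45, edgeR adjusted p = 2.89e-05) and Bst2 was not called. In that for stroma, Cxcl12 was called higher and Col1a1 was not called (-0.26). The promyelocyte genes summed to 49.2 to 64.5 CPM in aged and 32.2 to 48.4 CPM in young mice. The part of any of these cells in the Jak3 values was not tested. None of the 9 tested macrophage markers was at 0 in any mouse. Without aged mouse 1 the log2 fold change of Jak3 was 1.09.

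**Figure D2:**
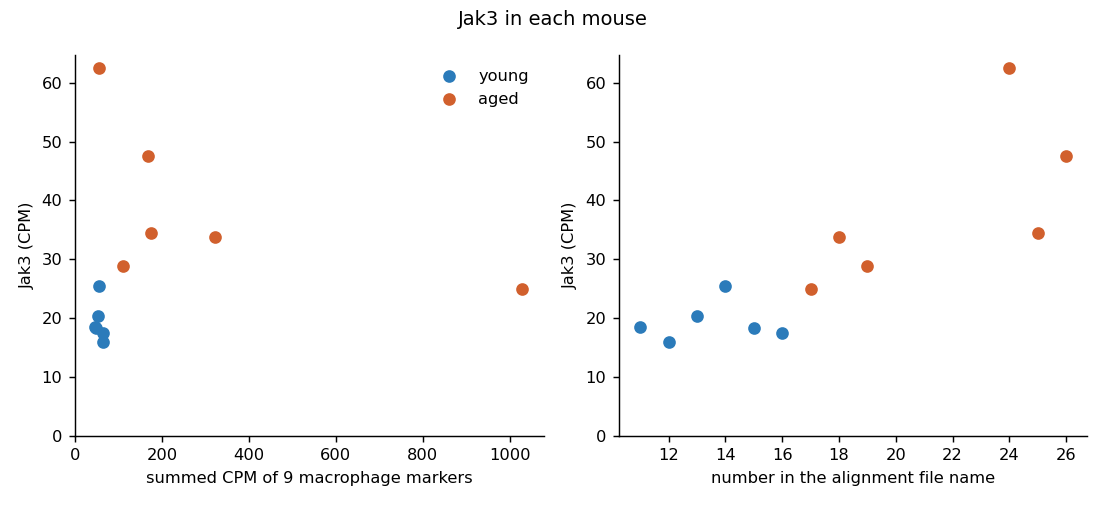
Jak3 in CPM (vertical axes from 0) in each mouse against the summed CPM of 9 macrophage markers without Slc40a1 (left) and against the number in the name of its alignment file (right), 1 dot per mouse, coloured by age. The aged mouse with 1030 CPM of these markers has 25 CPM of Jak3, and aged mice 24 to 26 lie above aged mice 17 to 19.

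JAK1 pairs with the other JAKs on receptors for interferons, IL-6, IL-10 and the gamma chain cytokines. Jak1 (chr4:101151974-101265282, minus strand, 25 exon blocks) shares 397 exon bases with Raver2 on the other strand, and the counts were made by strand. Young mice held 547 CPM at the lowest, 600 CPM at the median and 622 CPM at the highest. Aged mice held 466, 533 and 534 CPM in the same order. Every aged mouse was thus below every young mouse, and 4 of the aged mice lay within 532 to 534 CPM. The log2 fold change was -0.20 ± 0.06 (standard error, edgeR adjusted p = 0.0180), from 591 ± 32.0 to 516 ± 28.9 CPM (SD, n = 6).

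JAK2 acts on receptors for GM-CSF, IL-3, erythropoietin, thrombopoietin and interferon gamma. Jak2 (chr19:29251828-29313080, plus strand, 25 exon blocks) ranged from 98.5 to 113 CPM in young mice, with a median of 107 CPM. In aged mice it ranged from 77.2 to 92.6 CPM, with a median of 85.8 CPM. The groups did not overlap, and the gap between the highest aged and the lowest young mouse was smaller than the range within either age. The log2 fold change was -0.31 ± 0.07 (standard error, edgeR adjusted p = 0.00186).

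TYK2 serves type I interferons, IL-12, IL-23 and the IL-10 family. Tyk2 (chr9:21104068-21131275, minus strand, 25 exon blocks) was at 44.0 CPM in the lowest, 48.1 CPM in the median and 65.7 CPM in the highest young mouse. The same values in aged mice were 37.2, 41.9 and 44.8 CPM. Young mice 5 and 6 stood apart at 65.4 and 65.7 CPM, and the other 4 young mice, at 44.0 to 49.9 CPM, lay close to the aged mice. The log2 fold change was -0.36 ± 0.11 (standard error, edgeR adjusted p = 0.0171). Without young mice 5 and 6 it was -0.18 ± 0.08 (edgeR adjusted p = 0.101), and Tyk2 was no longer called. These mice were left out after their values were seen, and since they held the highest Tyk2, the smaller fall follows from that choice. They also had the lowest neutrophil marker sums, 91626 and 93033 CPM against 121920 to 140876 CPM in the other young mice. The part of this in the Tyk2 values was not tested.

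The falls of Jak1, Jak2 and Tyk2 depended on how gene length was treated. In these libraries the age difference of a gene followed its exon length, with a Spearman correlation of -0.48 across the 9742 genes, which are not independent replicates. The members are long, with a median of 4487 exon bases against 2890 over all genes tested. When the dependence on length was removed library by library, Jak1 stood at 0.02 (adjusted p = 0.828), Jak2 at -0.11 (0.186) and Tyk2 at -0.17 (0.183), and none of the 3 was called by edgeR. Jak3 stood at 1.11 (adjusted p = 0.000834) and Stat5b at 0.25 (0.0467) in the same fit. That made 2 called members (22.2%), both higher, against 34.8% of all genes. In the aged mice of alignment numbers 24 to 26 set against all young mice, Jak1 stood at -0.14 (edgeR adjusted p = 0.172), Jak2 at -0.20 (0.0574) and Tyk2 at -0.35 (0.0962), and none was called either. In those of numbers 17 to 19, Jak1 (-0.25) and Jak2 (-0.41) were called and Tyk2 (-0.36, adjusted p = 0.0890) was not.

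**Figure D3:**
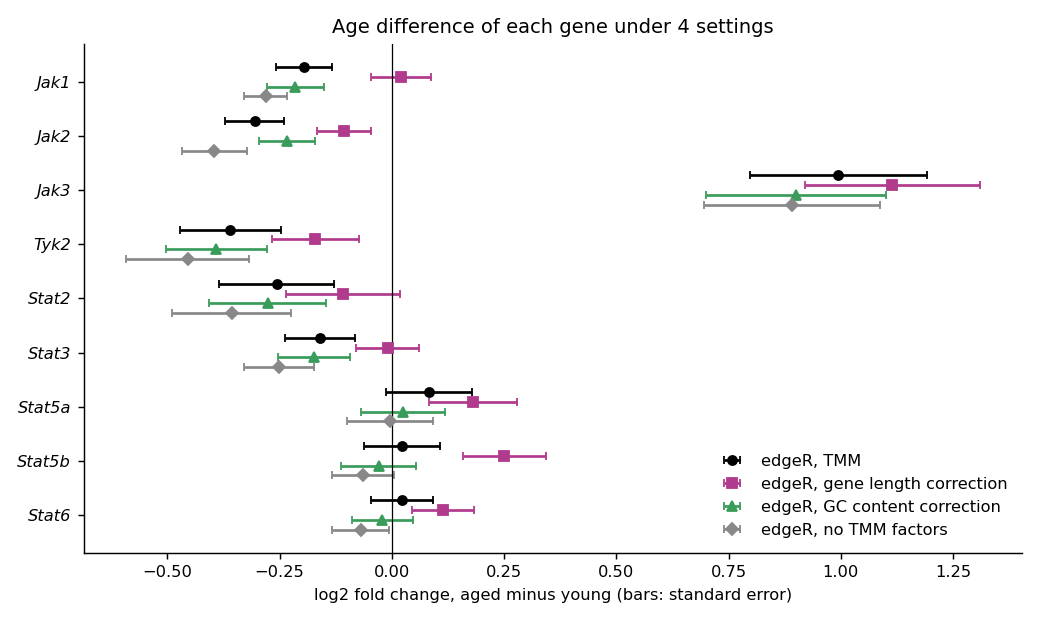
Log2 fold change of each of the 9 genes, aged minus young, with its standard error, under the test as reported (black), with correction for gene length (purple) or for GC content (green), and without TMM factors (grey). Jak3 lies between 0.89 and 1.11 under the 4 settings, while Jak1 lies at -0.20 as reported and at 0.02 with the length correction.

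Among the STATs, Stat3 (chr11:100886810-100939511, minus strand, 24 exon blocks) encodes the factor through which G-CSF and IL-6 act on myeloid cells. It ranged from 391 to 453 CPM in young mice and from 308 to 433 CPM in aged mice. Aged mice 1, 2, 4 and 6, at 308 to 388 CPM, lay below all young mice, and aged mice 5 and 7 lay within the young range. The log2 fold change was -0.16 with a 95% interval of -0.33 to 0.01 (edgeR adjusted p = 0.106). A fall of the size seen for Jak1 lies inside that interval. Without aged mouse 7 the log2 fold change was -0.20 and Stat3 was called. With the length correction over all mice it was -0.01 (edgeR adjusted p = 0.927).

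Stat2 (chr10:128270576-128292849, plus strand, 24 exon blocks), whose product needs IRF9 to bind DNA, ranged from 36.8 to 53.5 CPM in young and from 28.1 to 48.2 CPM in aged mice. Aged mouse 5 alone was above 36.8 CPM, at 48.2 CPM, and the other 5 aged mice lay below the lowest young mouse. The log2 fold change was -0.26 with a 95% interval of -0.53 to 0.02 (edgeR adjusted p = 0.114). Without aged mouse 5 it was -0.37 and Stat2 was called. With the length correction over all mice it was -0.11 (edgeR adjusted p = 0.535).

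Stat6 (chr10:127642986-127660987, plus strand, 22 exon blocks) encodes the factor of the IL-4 and IL-13 response. It was at 311 to 344 CPM in young mice and at 295 to 385 CPM in aged mice, so that the young range lay within the aged range. The log2 fold change was 0.02 with a 95% interval of -0.12 to 0.17 (edgeR adjusted p = 0.807). Its last 70 exon bases are shared with Nab2 on the other strand.

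Stat5a and Stat5b encode closely related factors for GM-CSF, IL-3 and the IL-2 family. With Stat3 they lie side by side on chromosome 11, Stat5b at chr11:100780731-100850585 on the minus strand and Stat5a at chr11:100859351-100885169 on the plus strand, with 20 exon blocks each. Stat5a ranged from 26.2 to 36.2 CPM in young and from 26 to 35.4 CPM in aged mice. Stat5b ranged from 191 to 229 CPM in young and from 189 to 257 CPM in aged mice. The groups overlapped for both genes, though Stat5b in aged mice 1, 4 and 5 (189, 257 and 244 CPM) lay outside the young range. The log2 fold changes were 0.08 for Stat5a (95% interval -0.12 to 0.29, edgeR adjusted p = 0.501) and 0.02 for Stat5b (95% interval -0.16 to 0.20, edgeR adjusted p = 0.844).

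The balance of the 2 STAT5 genes was compared per length. Stat5b stood at 39.2 CPM per kb and Stat5a at 7.54 CPM per kb in young mice, and at 39.8 and 7.97 CPM per kb in aged mice. As the geometric mean over mice, Stat5b was 5.18-fold higher than Stat5a in young and 4.95-fold higher in aged mice. The log2 ratio of Stat5a to Stat5b was -2.37 ± 0.17 in young and -2.31 ± 0.24 in aged mice (SD, n = 6), a difference of 0.07 (exact two-sided permutation test over 924 regroupings, p = 0.582). This ratio rests on fragments that could be placed in 1 gene only. The coding sequences of Stat5a and Stat5b, 2382 and 2361 bases in GENCODE's mouse transcripts, are identical at 90.7% of the aligned positions. Of the 2283 stretches of 100 bases in Stat5a, 265 (11.6%) also occur in Stat5b. Counting required a mapping quality of at least 60, so fragments within such stretches are likely missing from both genes at both ages. The longest run that both share, shown because no read inside it tells the genes apart, is 324 bases long and spans coding bases 571 to 894 of each, of which 571 to 720 follow.

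Stat5a and Stat5b shared run: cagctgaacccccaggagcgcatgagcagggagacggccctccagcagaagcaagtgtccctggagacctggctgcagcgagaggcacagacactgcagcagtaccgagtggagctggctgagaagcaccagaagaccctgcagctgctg

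Per length, Jak1 was the most abundant member and Jak3 the least abundant in young mice. In young mice the order in CPM per kb was Jak1 (111), Stat3 (93.5), Stat6 (87.0), Stat5b (39.2), Jak2 (21), Tyk2 (10.8), Stat2 (9.49), Stat5a (7.54) and Jak3 (4.74). In aged mice it was Jak1 (97.3), Stat6 (88.4), Stat3 (83.6), Stat5b (39.8), Jak2 (17), Jak3 (9.47), Tyk2 (8.43), with Stat5a and Stat2 both at 7.97. Jak3 thus stood in the ninth place in young mice and in the sixth in aged mice. With 6 mice the exact two-sided sign-flip test between neighbours cannot give a p below 0.0312, and after adjustment over the 16 pairs the smallest value was 0.0556. Of the 8 neighbouring pairs in young mice, 6 kept their order in all 6 mice, and Stat3 above Stat6 and Stat2 above Stat5a held in 5. In aged mice only 3 of 8 did, namely Stat3 above Stat5b, Stat5b above Jak2 and Jak2 above Jak3. Jak3, Tyk2, Stat5a and Stat2 were not separated beyond their spread in aged mice (exact p of 0.656, 0.438 and 0.906 for the neighbouring pairs).

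**Figure D4:**
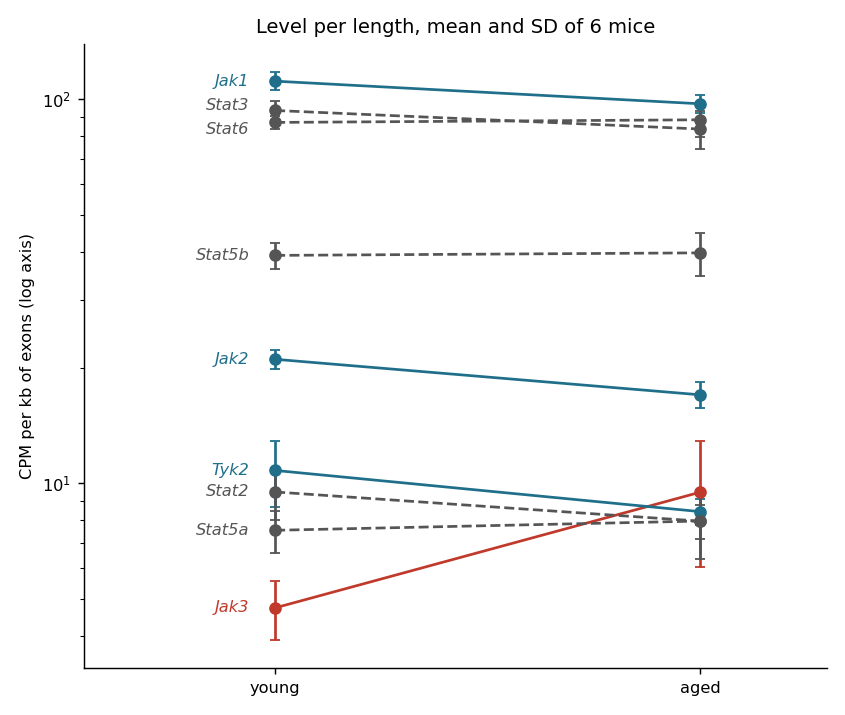
Mean level per length of each gene in young and aged mice in CPM per kb of exons (log axis), with the SD of 6 mice. JAKs are drawn with full and STATs with dashed lines. Jak3, in red, goes from 4.74 to 9.47 CPM per kb and passes Tyk2, Stat2 and Stat5a.

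Within the 4 JAKs, Jak3 made up 3.21% ± 0.61 of the summed level per length in young mice (2.57% to 4.32%) and 7.08% ± 2.16 in aged mice (5.12% to 10.8%, SD, n = 6). Jak1 made up most of that sum at both ages, 75.3% ± 2.65 in young and 73.7% ± 1.80 in aged mice. The sum itself was 148 ± 4.05 CPM per kb in young and 132 ± 8.67 CPM per kb in aged mice. For the 5 STATs the sum was 237 ± 6.21 and 228 ± 20.7 CPM per kb. Stat3 was the largest part in young mice with 39.5% ± 1.44 and Stat6 in aged mice with 38.8% ± 1.34.

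The bases before the start sites were read from RefSeq's table of promoters on GRCm38.p6, the assembly of mm10, with 11 start sites for the 9 genes. The sequences of Jak3, which rose, of Jak2 and Tyk2, which fell, and of Stat2, which holds an interferon-type element, are shown as the 250 bases before the start. Capitals mark matches to the motifs described after them. The windows are chr8:71676133-71676382 (plus strand) for Jak3, chr19:29251553-29251802 (plus strand) for Jak2, chr9:21131276-21131525 (minus strand) for Tyk2 and chr10:128270248-128270497 (plus strand) for Stat2.

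Jak3: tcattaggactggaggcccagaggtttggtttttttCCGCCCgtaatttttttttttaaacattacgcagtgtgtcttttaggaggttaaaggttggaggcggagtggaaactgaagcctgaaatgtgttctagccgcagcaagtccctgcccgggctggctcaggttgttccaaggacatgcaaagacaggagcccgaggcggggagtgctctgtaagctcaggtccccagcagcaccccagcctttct

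Jak2: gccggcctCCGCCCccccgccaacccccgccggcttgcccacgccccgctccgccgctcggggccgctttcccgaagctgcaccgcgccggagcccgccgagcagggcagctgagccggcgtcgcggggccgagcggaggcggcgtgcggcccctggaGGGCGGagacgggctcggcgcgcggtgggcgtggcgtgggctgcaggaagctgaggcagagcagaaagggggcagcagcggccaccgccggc

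Tyk2: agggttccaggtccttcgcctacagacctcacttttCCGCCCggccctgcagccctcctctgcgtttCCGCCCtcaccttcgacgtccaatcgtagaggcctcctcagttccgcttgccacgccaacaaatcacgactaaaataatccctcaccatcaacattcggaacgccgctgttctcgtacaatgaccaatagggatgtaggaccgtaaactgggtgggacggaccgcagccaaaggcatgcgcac

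Stat2: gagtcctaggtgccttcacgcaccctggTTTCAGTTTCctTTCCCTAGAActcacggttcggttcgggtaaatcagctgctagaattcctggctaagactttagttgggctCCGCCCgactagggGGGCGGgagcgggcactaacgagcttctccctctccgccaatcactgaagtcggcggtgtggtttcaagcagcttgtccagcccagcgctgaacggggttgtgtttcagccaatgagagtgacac

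Motifs were searched on both strands in windows of this length. The GC box GGGCGG, the letters bound by SP1, was found in 8 of the 11 windows of the members and in 32.7% of the 32851 windows in the table, and each JAK had at least 1 match. The STAT element TTCNNNGAA was found in 0 of 11 (7.02% of all windows), and the same letters TTC and GAA with 4 bases between them in 1 (5.85%). The interferon-stimulated response element core, GAAA repeated after a gap of 2 bases, was found in 1 of 11 (2.98%), in Stat2, 222 bases before the start, and the wider STAT element of Stat2 starts 210 bases before it. The PU.1 box GAGGAA was found in 2 (23.3%), those of Stat6 and Stat5a, and the ETS core CCGGAAG in 0 (6.91%). These matches describe letters in short windows and do not separate Jak3 from the JAKs that fell.

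Other genes of the pathway were taken from lists of known components. Stat4, which carries IL-12 signals, fell in all aged mice, from 81.3 ± 7.0 to 54.7 ± 4.15 CPM, with a log2 fold change of -0.57 (edgeR adjusted p = 6.68e-05) and no overlap (47.8 to 59.7 CPM in aged, 70.8 to 89.0 CPM in young mice). Irf9, which encodes the DNA-binding partner of STAT2, rose from 71.7 ± 5.5 to 99.8 ± 28.9 CPM, with a log2 fold change of 0.48 (edgeR adjusted p = 0.0134).

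Of 37 cytokine receptor chains, 22 passed the filter, 8 were called higher, 3 lower and 11 were not called, with a median log2 fold change of 0.24 against 0.01 over all genes. The called chains were 50% of those tested, against 45.4% of all genes, and those called higher were 36.4%, against 22.4%. The 8 that rose were Il13ra1, Il4ra, Csf2rb2, Csf2rb, Il3ra, Crlf2, Ifngr1 and Ifnar2. Il13ra1, the chain that pairs with IL-4Rα to bind IL-13 and that signals through TYK2, had the largest rise, from 37.6 ± 13 to 124 ± 44.4 CPM (log2 fold change 1.73, edgeR adjusted p = 0.000194). Its values were 18 to 48.8 CPM in young and 72.5 to 193 CPM in aged mice and did not overlap. Il4ra rose from 180 ± 33.3 to 248 ± 37.8 CPM (edgeR adjusted p = 0.00874). Il2rg, the chain on which JAK3 sits, was at 16.7 to 25.5 CPM in young and at 17.4 to 29.3 CPM in aged mice and was not called (log2 fold change 0.23, edgeR adjusted p = 0.223).

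The smallest p among the receptor chains was that of Csf2rb2, a mouse beta chain for IL-3, which rose from 43.7 ± 5.69 to 84.0 ± 19.2 CPM (log2 fold change 0.95, edgeR adjusted p = 0.000153). Csf2rb, the common beta chain of GM-CSF, IL-3 and IL-5, rose from 444 ± 22.9 to 552 ± 96.9 CPM. The genes are near-identical copies, so how their fragments were split is uncertain. The 3 chains that fell were Ifnlr1, of the interferon lambda receptor, from 208 ± 36.9 to 127 ± 11.7 CPM, Il6ra, the IL-6 receptor, from 163 ± 16.4 to 103 ± 18.5 CPM, and Il10ra, of the IL-10 receptor, from 27.4 ± 3.51 to 19.5 ± 4.96 CPM. With the length correction 9 chains were called higher and 3 lower, Ifnlr1, Il6ra and Il10ra, together 54.5% against 34.8% of all genes. Il3ra was then not called (log2 fold change 0.25, edgeR adjusted p = 0.166), and Ifnar1 (0.27, adjusted p = 0.00866) and Il6st (0.84, adjusted p = 0.0385) were.

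**Figure D5:**
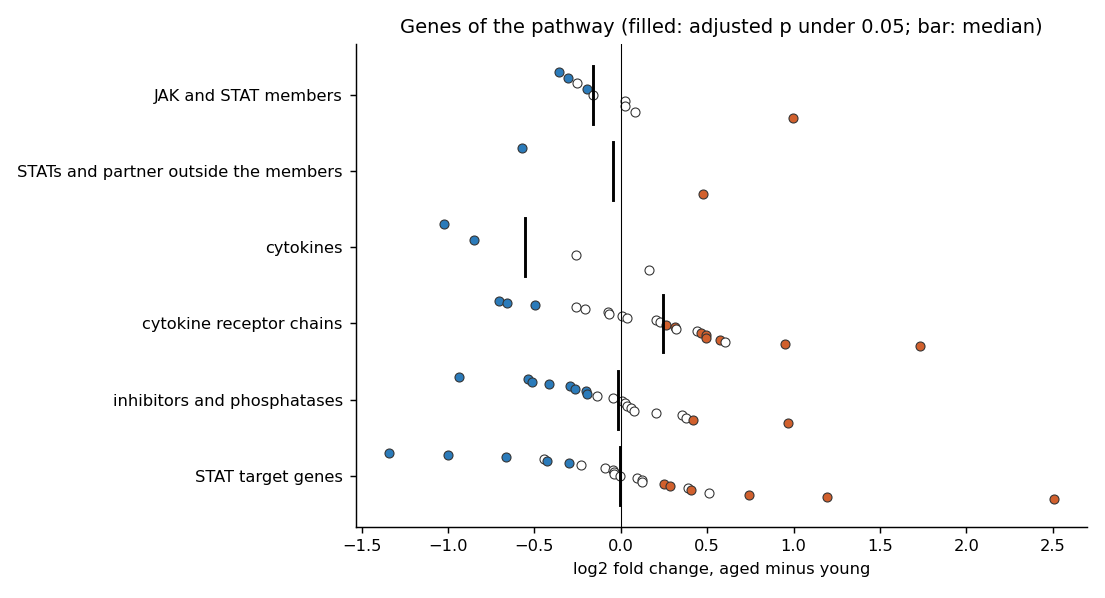
Log2 fold change, aged minus young, of every tested gene of 6 lists (horizontal axis), 1 dot per gene, filled when edgeR's adjusted p was under 0.05, with the median of each list as a bar. The receptor chains have a median of 0.24. Of the 20 tested inhibitors and phosphatases, 8 (40%) were called lower, against 23.0% of all genes. With the length correction 3 of them (15%) stayed so, against 16.5% of all genes.

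Cytokine genes themselves were scarce. Of 26 listed, 4 passed the filter, and 13 had 0 counts in all 12 libraries, where 3 counts would be 0.188 to 0.643 CPM. Osm, which encodes oncostatin M, fell from 223 ± 79.4 to 110 ± 18.7 CPM (log2 fold change -1.03, edgeR adjusted p = 0.00114). Its values overlapped, at 128 to 316 CPM in young and 98.7 to 148 CPM in aged mice. Young mice 1 and 2, at 129 and 128 CPM, lay below aged mouse 2. Il15 fell from 32.4 ± 4.04 to 18 ± 3.63 CPM (log2 fold change -0.85, edgeR adjusted p = 0.000217) without overlap. Ebi3 (83.3 ± 6.52 and 93.2 ± 6.5 CPM) and Il27 (2.97 ± 0.95 and 2.44 ± 0.54 CPM, young and aged), the 2 subunits of IL-27, were not called. With the length correction Osm and Il15 were still called, Il27 was called lower (log2 fold change -0.77, edgeR adjusted p = 0.0322) and Ebi3 stood at -0.14 (adjusted p = 0.0859).

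Of 21 inhibitors and phosphatases, 20 were tested, 2 were called higher, 8 lower and 10 were not called, with a median log2 fold change of -0.02. The called genes were 50% of those tested, against 45.4% of all genes, and those called lower were 40%, against 23.0%. Sh2b2, an adaptor that binds JAK2, had the largest fall, from 19.7 ± 3.49 to 10.3 ± 1.32 CPM (log2 fold change -0.93, edgeR adjusted p = 9.34e-05). Sh2b1, which enhances JAK2 activity rather than restraining it, and Sh2b3, which restrains it, fell as well, at log2 fold changes of -0.52 and -0.42. The remaining falls were those of Socs7, Pias2, the JAK and STAT phosphatase Ptpn2, Ptpn11, which encodes SHP-2, and Ptprc, which encodes CD45, between -0.19 and -0.53 on the log2 scale. Usp18, which restrains the type I interferon receptor, rose from 5.46 ± 1.04 to 10.6 ± 7.77 CPM (log2 fold change 0.97, edgeR adjusted p = 0.0313), where aged mouse 5 alone held 26.2 CPM. Cish, a feedback inhibitor of STAT5, rose from 8.58 ± 1.01 to 11.4 ± 1.36 CPM (log2 fold change 0.42, edgeR adjusted p = 0.00813). Socs3, the inhibitor induced by STAT3, was at 28.8 to 56.3 CPM in young and 41.3 to 80.5 CPM in aged mice and was not called (edgeR adjusted p = 0.0815). With the length correction 2 of the 20 were higher, Cish and Ptpn2, and 3 lower, the adaptors Sh2b1, Sh2b2 and Sh2b3. Together these were 25% against 34.8% of all genes, and those lower were 15% against 16.5%. Ptpn2 thereby changed direction, to a log2 fold change of 0.24 (edgeR adjusted p = 0.0255). The calls of Socs7 (-0.18), Pias2 (-0.07), Ptpn11 (0.05), Ptprc (-0.02) and Usp18 (0.81, adjusted p = 0.0740) were lost.

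Of 28 genes listed as STAT targets, 23 were tested, 6 were higher, 5 lower and 12 not called, with a median log2 fold change of -0.01. The called genes were 47.8% of those tested, against 45.4% of all genes. These genes answer to many other factors too. Id2 had the smallest p and rose from 63.4 ± 5.92 to 106 ± 19.6 CPM (log2 fold change 0.74, edgeR adjusted p = 0.000155). Mrc1, a macrophage receptor induced through STAT6, had the largest rise, from 6.52 ± 1.05 to 37.6 ± 49.1 CPM (log2 fold change 2.51, edgeR adjusted p = 0.00595), with 134 CPM in aged mouse 1, the mouse with the highest macrophage marker sum, in which Mrc1 itself is counted. Pim1, Ccnd2, Ccnd3 and Bcl2l1 also rose, while Pim2 (log2 fold change -0.45) and Mcl1 (-0.09) of the same list were not called. Fos fell most, from 454 ± 162 to 180 ± 58.1 CPM (log2 fold change -1.34, edgeR adjusted p = 0.000512), and Junb, Cebpb, Bcl2 and Vegfa fell as well. With the length correction 4 were higher and 5 lower, together 39.1% against 34.8% of all genes. Pim1 (log2 fold change 0.25, edgeR adjusted p = 0.0648), Ccnd3 (0.18, adjusted p = 0.0782) and Vegfa (-0.18, adjusted p = 0.207) were then not called, and Id1 was called lower (-0.45, adjusted p = 0.00481).

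Genes with a course over the 12 mice most like that of Jak3 and of Stat3 were found by the root mean square difference of log2 CPM after centring each gene. For Jak3, whose own root mean square was 0.58, they were the cell cycle phosphatase Cdc25b (0.213), the adhesion molecule Mcam (0.237) and the gamma-glutamyltransferase Ggt1 (0.238), against a median of 0.638 over all genes tested. Their log2 fold changes were 0.69, 0.92 and 1.19. The course includes the age difference, so rises near that of Jak3 follow from how these genes were chosen. For Stat3, which had the smallest p among the 5 STATs of the 9 genes, they were Zbtb7b (0.050), Osbpl8 (0.0664) and Morc3 (0.0672), against a median of 0.305.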

How the data were processed

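RNA of sorted BM M-MDSCs was measured in 12 mice, 6 per age, grouped by their labels. The authors counted fragments per gene with featureCounts 2.0.0 and deposited these counts without normalization. Counting ran over exons of an mm10 annotation, by strand, in pairs with both ends on 1 chromosome and a mapping quality of at least 60. No aligner is given in the sources used here. Exon lengths are those deposited in the same table.

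The 9 members and all lists were chosen with earlier results of these data known. Counts were fitted with edgeR 4.0.16 in R 4.3.3 (filterByExpr, TMM factors, quasi-likelihood test, Benjamini-Hochberg adjustment over 9742 genes), which was tested on simulated data first. The simulation changed few genes, equally up and down and without a dependence on gene length, so it does not cover those features of these data. CPM are counts relative to the TMM-scaled total. The biological coefficient of variation was 15.7%, and totals of 4613239 to 16300374 limit mainly genes of few counts. No pair of libraries of an age agreed within sampling noise (chi-square per gene at least 1.68). Named genes are all members, and in each list those of smallest p and of largest change in either direction, the members that went against the rest or were not called where these were 5 or fewer, and the 3 genes most like the JAK and the STAT of smallest p among the members. Further names were chosen after their values were seen. Intervals are 95%, and floors are 3 counts and cover counting error only. Alternatives were DESeq2 1.42.0, limma-voom (limma 3.58.1), no TMM or upper quartile factors, other filters, thinning to 4613239 counts, corrections for length (lowess span 0.3) and GC content, a replicate block and subsets of mice. GC content was taken from GENCODE transcripts for 94.4% of the genes tested. Mitochondrial genes were not analysed here, and 1 gene of the pathway lists is not reported here.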

Additional observations from a re-analysis of the deposited data

Results flagged for a closer look

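A value far from the other mice of its age by Dixon's criterion at the 95% level was found in 5 of 46 groups of 6 mice screened, where chance gives about 1 in 20. Stat5a was 36.2 CPM in young mouse 2, with the next mouse at 29.2 CPM, and without that mouse its log2 fold change was 0.15 and it was not called. Aged mouse 5 had 156 CPM of Irf9 (next 96.5 CPM) and 26.2 CPM of Usp18 (next 9.09 CPM), and it also held the highest Stat2 (48.2 CPM) and Jak3 (62.5 CPM) of the aged mice. Osm was 148 CPM in aged mouse 2 (next 106 CPM). Mrc1 was 134 CPM in aged mouse 1 (next 41.6 CPM).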

How the results depend on the processing

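Jak3 was called under all 14 alternatives run on the full set or a subset of mice, at log2 fold changes of 0.58 to 1.32, and in all 12 fits without 1 mouse (0.81 to 1.09). The 3 falls held in those 12 fits (Jak1 -0.22 to -0.17, Jak2 -0.33 to -0.27, Tyk2 -0.41 to -0.29). With the length correction Jak1 was 0.021, Jak2 -0.11, Tyk2 -0.17 and Stat5b 0.25, with 2 members called, 2 higher and 0 lower, and 5 inhibitors and phosphatases were called. Without TMM factors, which moved the median of all genes to -0.08, Stat2 (-0.36) and Stat3 (-0.25) were called, which made 5 falls, and Stat5a (-0.0042), Stat5b (-0.064) and Stat6 (-0.069) changed sign without being called. Of all 9742 genes 4444 were then called, 1682 of them higher and the rest lower. The share of higher among all calls was thus 37.8% against 49.4%.

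The replicate block was fitted over the 8 mice whose numbers occur at both ages. The same-numbered mice did not deviate together (correlations of -0.25 to -0.07), so the numbers were not taken as pairs. With the block Jak1 was -0.22 and not called, Stat5b -0.020 and Stat6 -0.011. With block and length correction Jak1 was 0.065, Jak2 -0.11 and Tyk2 -0.28, with 1 member called and 0 lower. Calls were also fewer over all genes in that fit, at 1875 of 9821 genes tested, 907 of them higher, against 4425 of 9742 as reported. Alternatives added after seeing the data gave the following. The GC correction gave Stat5b -0.029 and Stat6 -0.021. Aged mice of alignment numbers 17 to 19 gave Stat3 -0.28 (called), Stat6 -0.062 and Tyk2 -0.36 (not called). Aged mice 24 to 26 gave Jak1 -0.14, Jak2 -0.20 and Tyk2 -0.35, none called, with 1 member called and 0 lower. Over all genes this subset gave 3014 calls among 9943 genes tested, 1521 of them higher. Without young mice 5 and 6, Tyk2 was -0.18 (not called) and Stat5b -0.061. Fits without 1 mouse spanned -0.37 to -0.17 for Stat2, -0.20 to -0.11 for Stat3, 0.04 to 0.15 for Stat5a, -0.026 to 0.059 for Stat5b and -0.017 to 0.058 for Stat6, and 4 to 5 members were called. The cause of these shifts was not tested. The GC correction from a genome was not run. With every library thinned to 4613239 counts the 4 JAKs were called and no STAT was.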
